A study of Drosophila melanogaster with 8 samples.

Results

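The Notch pathway core genes described here are 10 genes of *Drosophila melanogaster*, *N*, *Dl*, *Ser*, *neur*, *mib1*, *fng*, *kuz*, *Psn*, *Su(H)* and *H*. They were matched by gene symbol in a table of 23932 annotated features, and all 10 were found. The RNA came from dissected adult brains, with 4 samples of EmcOE flies and 4 samples of Control flies. EmcOE flies carried the *elavC155-Gal4* driver together with *UAS-emc*, so that Extramacrochaetae (Emc), an inhibitory partner of the basic helix-loop-helix factor Daughterless (Da), was overexpressed in neurons. Control flies came from the same driver line crossed to *white** and had no *UAS-emc*, so the effect of Emc and that of the different parental line cannot be told apart. Both groups therefore held the driver, both were 0 to 1 day old, and each sample pooled the brains of males and females. The driver is active in neurons from embryonic stages on, so the overexpression was not limited to the adult. The comparison asks which transcripts of the brain differ when Emc is overexpressed in neurons, which the paper used to lower Da activity. According to the paper, Emc could also pair with other basic helix-loop-helix proteins present in neurons.

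Notch is a transmembrane receptor that is activated by ligands on the surface of a neighbouring cell. Ubiquitin ligases drive endocytosis of the ligand, the pull on the receptor exposes it to proteases, and the freed intracellular domain enters the nucleus, where it turns the DNA-binding protein Suppressor of Hairless from a repressor into an activator. In the fly nervous system the pathway is known for selecting neural precursors and for setting sibling cell fates, and in the adult brain it has been linked to long-term memory.

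Of the 10 genes, 1 fell in EmcOE brains and none rose. The gene that fell was *fng*, which encodes the glycosyltransferase that modifies the receptor, with a loss of 18.1% of its normalized count. The receptor, both ligands, both ligand ubiquitin ligases, both proteases and both nuclear factors did not pass the test. A gene was called when the adjusted p of edgeR's quasi-likelihood test was at most 0.05 and its log2 fold change was at least 0.2 in size. By this rule 8.68% of the 9788 features tested were called, 3.57% up and 5.12% down, so 1 of 10 members is close to that background share. An unadjusted p of at most 0.05 was reached by 1 of the 10 members, against 25.5% of all features tested. The median log2 fold change of the 10 members was 0.026, that of the 9 members other than *fng* was 0.030, and that of all features tested was 0.013. None of the 10 members had groups that did not overlap, whereas 16.4% of all features tested did.

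Total counts ranged from 21400830 to 41619980 in EmcOE samples and from 20751513 to 22776791 in Control samples. Normalized counts of *emc* were 6038, 6289, 5874 and 6020.2 in EmcOE samples and 4951, 4786, 5165 and 4961 in Control samples, an increase of 21.9% (edgeR adjusted p = 0.0025). Transcripts of *da* averaged 1895 ± 88.3 in EmcOE samples and 1890 ± 42.9 in Control samples (SD, n = 4 each; edgeR adjusted p = 0.98). No gene of the neuronal, glial or photoreceptor lists was at 0 in all samples. The same held for the fat body, hemocyte, muscle and neuroblast lists, so this does not tell sampled tissue from other tissue. The neuroblast gene *ase*, for example, had 0 to 1 raw counts per sample. The summed level of 8 neuronal markers was 1395 to 1460 counts per kilobase of exon per 1000000 counts in EmcOE samples and 1347 to 1426 in Control samples, and 1 of the 8 rose. The summed level of 7 glial markers was 1550.1 to 1692 in EmcOE samples and 1767 to 1841 in Control samples. These groups did not overlap, and 1 of the 7, the glutamine synthetase gene *Gs2*, fell. *Gs2* had the highest level of the 7 and weighed most in the sum. Its mean level was 756 in EmcOE and 912 in Control samples. Log2 fold changes were positive for 3 of the 7 and negative for 4. The summed level of 6 photoreceptor markers was 12109 to 12869 in EmcOE samples and 12266 to 14740 in Control samples. These sums were above the neuronal and glial sums, and none of the 6 was called. The photoreceptor gene *ninaE* alone had a mean level of 7287 over all samples, so the samples also held much photoreceptor RNA. Its part in the levels of the members was not tested. In the remaining lists, 2 of 5 fat body markers rose, 2 of 3 hemocyte markers fell and 0 of 3 muscle markers were called. In bulk RNA, fewer cells of a type and less RNA per cell cannot be told apart.

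Levels are given on that per-length scale, which allows genes to be compared with each other. On it *fng* was the most abundant member, at 24.2 ± 1.40 in EmcOE samples and 29.5 ± 2.41 in Control samples (SD, n = 4 each). *Psn* stood at 21.4 ± 0.74 and 21.4 ± 0.40 in EmcOE and Control samples, *mib1* at 14.3 ± 1.07 and 13.2 ± 0.46, and *kuz* at 12.6 ± 1.00 and 11.9 ± 0.27. A gap followed, since *kuz* was on average 3.0-fold above *N*, which had a level of 4.22 ± 0.42 in EmcOE samples and 3.96 ± 0.48 in Control samples. The nuclear factors lay just below the receptor, with *H* at 3.86 ± 0.38 and 3.77 ± 0.41 and *Su(H)* at 3.28 ± 0.47 and 3.24 ± 0.19 in EmcOE and Control samples. The lowest were *neur* at 1.97 ± 0.15 and 2.0 ± 0.32, *Dl* at 1.30 ± 0.18 and 1.20 ± 0.12, and *Ser* at 0.297 ± 0.075 and 0.290 ± 0.052, again for EmcOE before Control. The place of *neur* rests on its full exon length, part of which is shared with an antisense gene. Over its unshared length *neur* ranged from 2.62 to 3.85 over the 8 samples, against 2.85 to 3.88 for *Su(H)*.

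The span of levels was wide. The mean of *fng* over all 8 samples was 91.5-fold that of *Ser*, and *Dl* exceeded *Ser* 4.27-fold. Of the 9 neighbouring pairs in this order, 6 had ranges over the 8 samples that did not overlap, among them *Su(H)* and *neur*, whose separation does not hold over the unshared length of *neur*. The ranges of *mib1* and *kuz*, of *N* and *H*, and of *H* and *Su(H)* overlapped, although *mib1* was above *kuz* in 8 of 8 samples, *H* above *Su(H)* in 8 of 8 and *N* above *H* in 6 of 8. Among all features tested, *fng* stood at the 76.2 percentile of level and *Ser* at the 1.30 percentile.

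**Figure D1:**
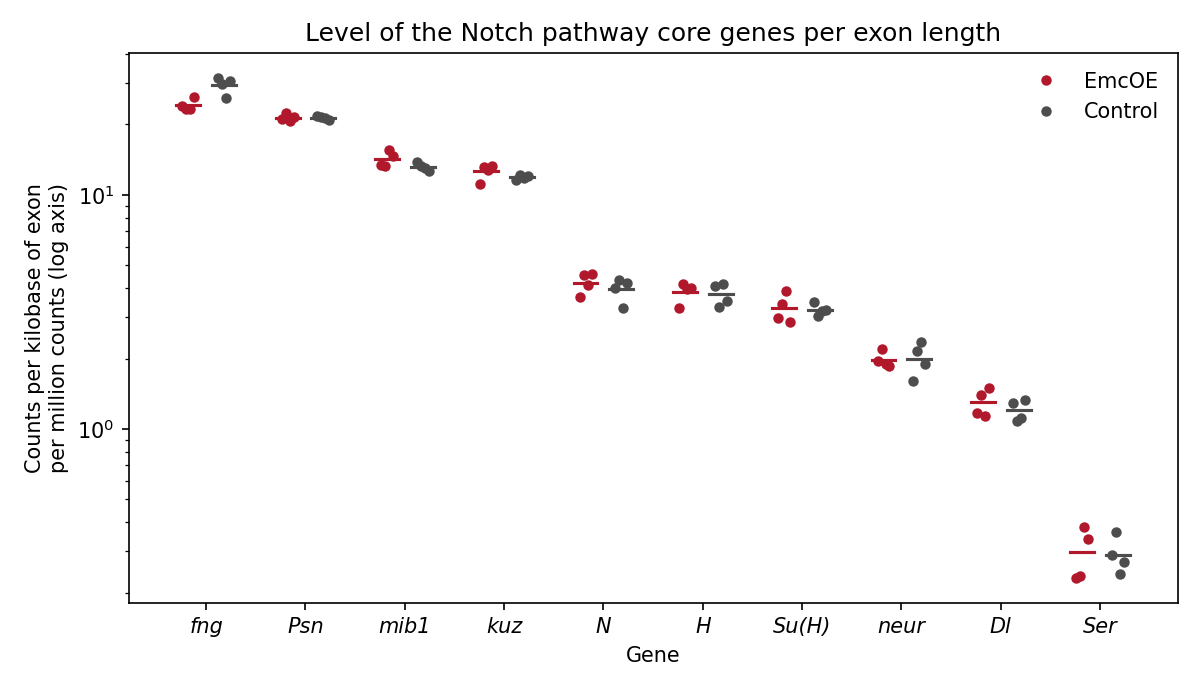
Level of each gene in counts per kilobase of exon per 1000000 counts on a log axis, with 1 point per sample, EmcOE in red to the left of Control in grey, and a line at each group mean. *fng*, *Psn*, *mib1* and *kuz* lie above 10, *Ser* lies below 1, and the groups overlap for every gene. *neur* is drawn over its full exon length.

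The receptor gene *N* lies on chromosome X from 3134870 to 3172221 on the plus strand (BDGP6.32). Its normalized counts were 907, 1117, 1013 and 1130.0 in EmcOE samples and 989, 1073, 808 and 1038 in Control samples. The lowest value was that of Control replicate 3, and the other Control samples lay within the EmcOE range. The log2 fold change was 0.089 (95% interval -0.13 to 0.31; edgeR adjusted p = 0.61), and it was 0.0032 without Control replicate 3.

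Delta, encoded by *Dl* on chromosome arm 3R (19302731 to 19326217, minus strand), is the more widely used of the pair of Notch ligands. *Dl* had 150.2, 179, 146 and 192 normalized counts in EmcOE samples and 165, 139, 143 and 170.2 in Control samples. The highest values, EmcOE replicates 4 and 2, stood above every Control sample, but the other EmcOE samples fell among the Control values (log2 fold change 0.11, 95% interval -0.16 to 0.38; edgeR adjusted p = 0.63). Serrate, the other ligand, is encoded by *Ser* at 27172090 to 27194267 on the minus strand of the same arm. Its normalized counts were 32.8, 33.3, 53.9 and 48.1 in EmcOE samples and 40.9, 51.3, 34.0 and 38.1 in Control samples. The EmcOE values split into a lower and a higher pair around most of the Control values. Raw counts of *Ser* were 28 to 59 per sample, and counting error alone gives a coefficient of variation of 15.6% at the mean count, against observed coefficients of 25.3% in EmcOE and 17.9% in Control samples. The interval of its log2 fold change was accordingly the widest of the 10 members (0.021, 95% interval -0.50 to 0.54; edgeR adjusted p = 0.97), so changes of *Ser* within it were not detectable in these samples.

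The ubiquitin ligase genes of the ligands gave more precise values for *mib1* than for *neur*. Mind bomb 1, encoded by *mib1* on 3L (16006552 to 16011812, minus strand), acts on ligands in many tissues. Normalized counts of *mib1* were 1338, 1328, 1552 and 1455 in EmcOE samples and 1372, 1323, 1296 and 1263 in Control samples. EmcOE replicates 3 and 4 were above all Control samples and replicates 1 and 2 were within the Control range. The log2 fold change of 0.11 (95% interval -0.022 to 0.24) was the largest positive one among the members, with an unadjusted p of 0.093 and an edgeR adjusted p of 0.28. Neuralized, encoded by *neur* on 3R (9020348 to 9039471, minus strand), is known from neural precursor selection. *neur* had 205, 229, 197 and 194 normalized counts in EmcOE samples and 168, 225, 247 and 198 in Control samples. The Control values enclosed all 4 EmcOE values (log2 fold change -0.019, 95% interval -0.29 to 0.25; edgeR adjusted p = 0.94). Of the exon length of *neur*, 38.8% (1673 bases) also lies in the antisense gene *asRNA:CR31429*, which had a count of 0 in every sample. Counting ignored strand, so read pairs from this shared stretch would not be assigned to either gene. Over the exon length not shared, *neur* had a level of 3.23 ± 0.25 in EmcOE samples and 3.27 ± 0.53 in Control samples, beside *Su(H)* and not below it.

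Fringe, the product of *fng*, is a glycosyltransferase that extends O-linked fucose on the extracellular repeats of Notch and thereby favours Delta over Serrate as ligand. The gene lies on 3L from 20925891 to 20949512 on the minus strand, with 1 annotated transcript of 1959 exonic bases, of which 1236 are coding, 211 lie in the 5′ UTR and 509 in the 3′ UTR. Normalized counts of *fng* were 1143, 1107, 1104 and 1246 in EmcOE samples and 1504, 1415, 1240.5 and 1456 in Control samples. EmcOE replicates 1, 2 and 3 were below every Control sample, and the groups overlapped only where EmcOE replicate 4 stood slightly above Control replicate 3. The means were 1150 ± 66.4 in EmcOE samples and 1404 ± 114.9 in Control samples (SD, n = 4 each), a fold of 0.82 (95% interval 0.74 to 0.91). The log2 fold change was -0.29 ± 0.068 (SE), with an edgeR adjusted p of 0.025.

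The fall of *fng* kept its direction in all 19 alternative settings and passed the thresholds in 13 of them. It missed the adjusted p threshold when counts were scaled by total counts only (log2 fold change -0.22, adjusted p = 0.13) and in the fits without EmcOE replicate 2 (0.066), EmcOE replicate 3 (0.069), Control replicate 1 (0.075), Control replicate 2 (0.062) or Control replicate 4 (0.057). Without Control replicate 3, which had the lowest Control value, the log2 fold change was -0.35 with an adjusted p of 0.0083, and DESeq2 gave -0.29 with 0.0031. The glial marker sum was also lower in EmcOE samples, as given above, but the markers of that list differed in direction. *Gs2*, which fell, had a level of 756 in EmcOE and 912 in Control samples (log2 fold change -0.27; edgeR adjusted p = 0.0070). The other 6 glial markers were not called, with *alrm* at -0.19, *Eaat1* at -0.079 and *repo* at -0.064 on the log2 scale, and *nrv2* at 0.019, *moody* at 0.039 and *wrapper* at 0.076. Their part in the result was not tested.

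**Figure D2:**
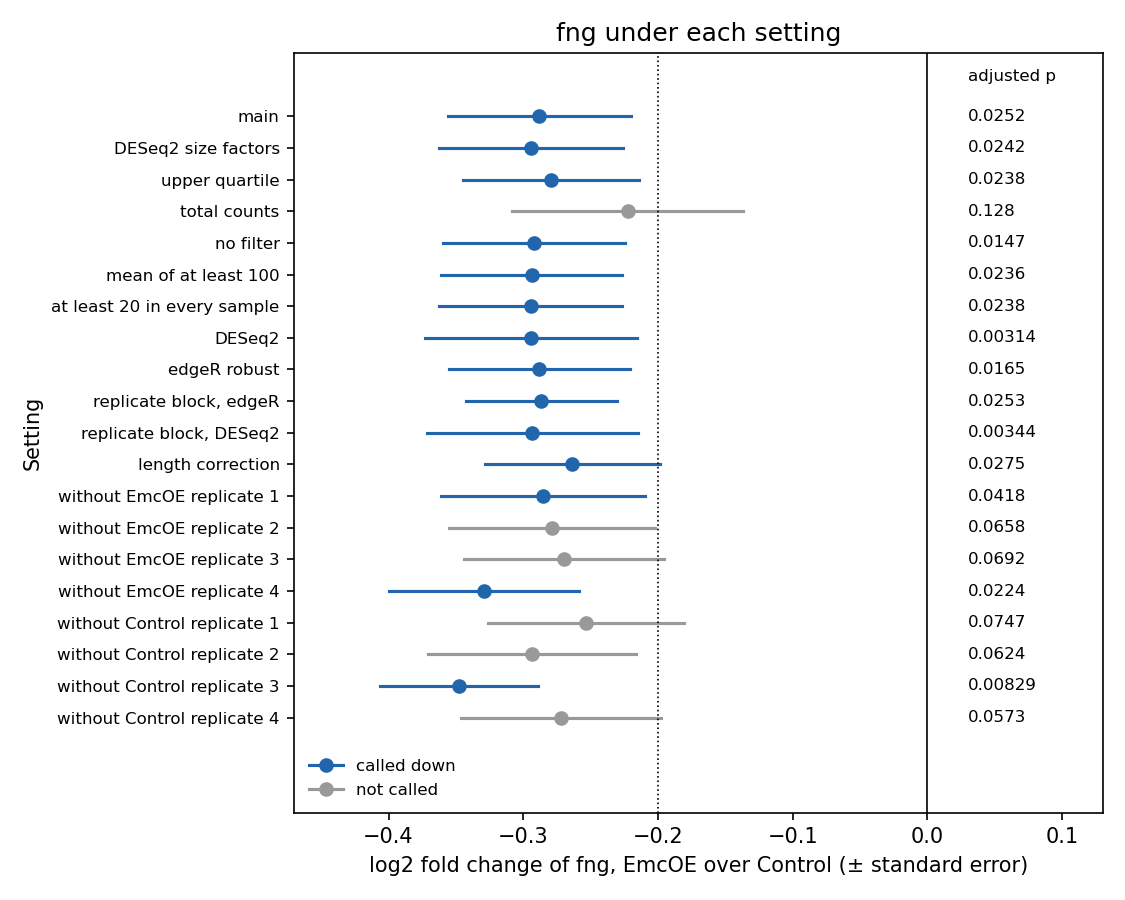
Log2 fold change of *fng*, EmcOE over Control, with its standard error under each processing setting, with the adjusted p printed at the right, blue where *fng* was called down and grey where it was not. The fold change lies between -0.35 and -0.22 in every setting, and the dotted line marks the fold threshold of -0.2.

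Neither protease of the receptor was called. Kuzbanian, the ADAM metalloprotease that cleaves the ligand-bound receptor outside the membrane, is encoded by *kuz* on 2L (13550139 to 13639411, plus strand). *kuz* had 1928, 2278, 2202 and 2304 normalized counts in EmcOE samples and 2002, 2105, 2038 and 2084 in Control samples. EmcOE replicates 2, 3 and 4 were above all Control samples, while EmcOE replicate 1 was the lowest of all 8 (log2 fold change 0.081, 95% interval -0.049 to 0.21; edgeR adjusted p = 0.43). Presenilin, the catalytic subunit of gamma-secretase, which releases the intracellular domain, is encoded by *Psn* on 3L (20432468 to 20435156, plus strand). *Psn* had 1054, 1114, 1026 and 1066 normalized counts in EmcOE samples and 1086, 1074, 1057 and 1040.3 in Control samples. The coefficient of variation was 3.47% in EmcOE and 1.88% in Control samples, and the log2 fold change was 0.00069 (95% interval -0.11 to 0.11; edgeR adjusted p = 0.99). Among the 10 members, *Psn* was the only gene whose interval lay wholly within the 0.2 fold threshold in both directions.

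Suppressor of Hairless and Hairless act against each other at target genes in the nucleus. *Su(H)*, on 2L (15039488 to 15043334, plus strand), had 213, 246, 278 and 205 normalized counts in EmcOE samples and 251, 218, 228 and 231 in Control samples. The EmcOE values reached beyond the Control values on both sides (log2 fold change 0.016, 95% interval -0.22 to 0.26; edgeR adjusted p = 0.94). *H*, on 3R (20621938 to 20628915, plus strand), encodes the antagonist that holds Suppressor of Hairless in a repressor complex. Its normalized counts were 482, 610, 578 and 583 in EmcOE samples and 593, 487, 609 and 513 in Control samples. Both groups had values near the bottom and near the top of the range (log2 fold change 0.030, 95% interval -0.19 to 0.25; edgeR adjusted p = 0.88).

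**Figure D3:**
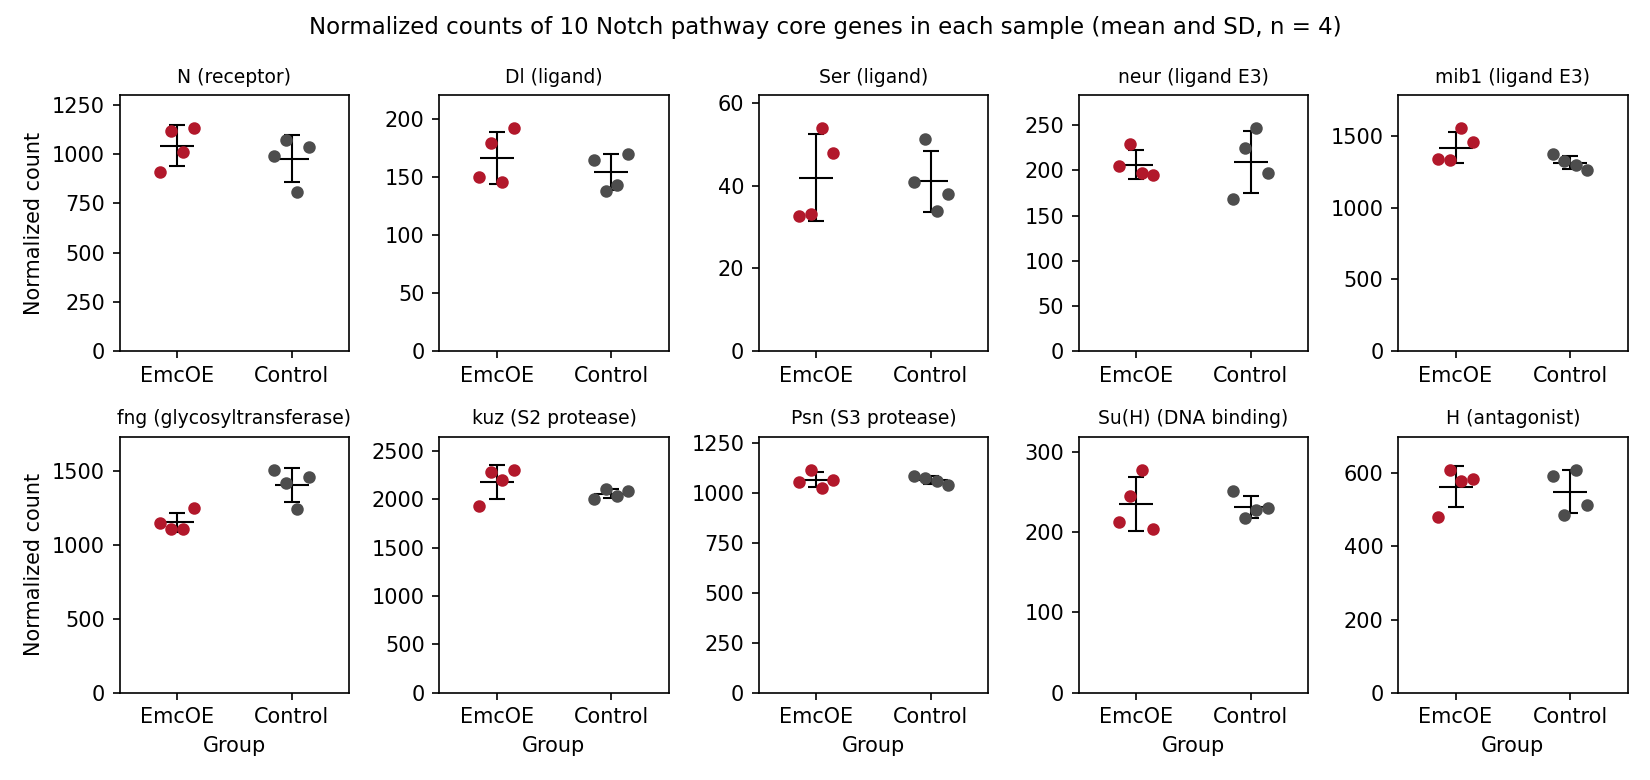
Normalized counts of the 10 genes in each sample, 1 panel per gene with an axis from 0, EmcOE in red on the left and Control in grey on the right, with the group mean and SD (n = 4 each). For *fng* the EmcOE points (1104 to 1246) lie below the Control points (1240.5 to 1504) except for 1 overlap, and the other panels show overlapping groups.

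**Figure D4:**
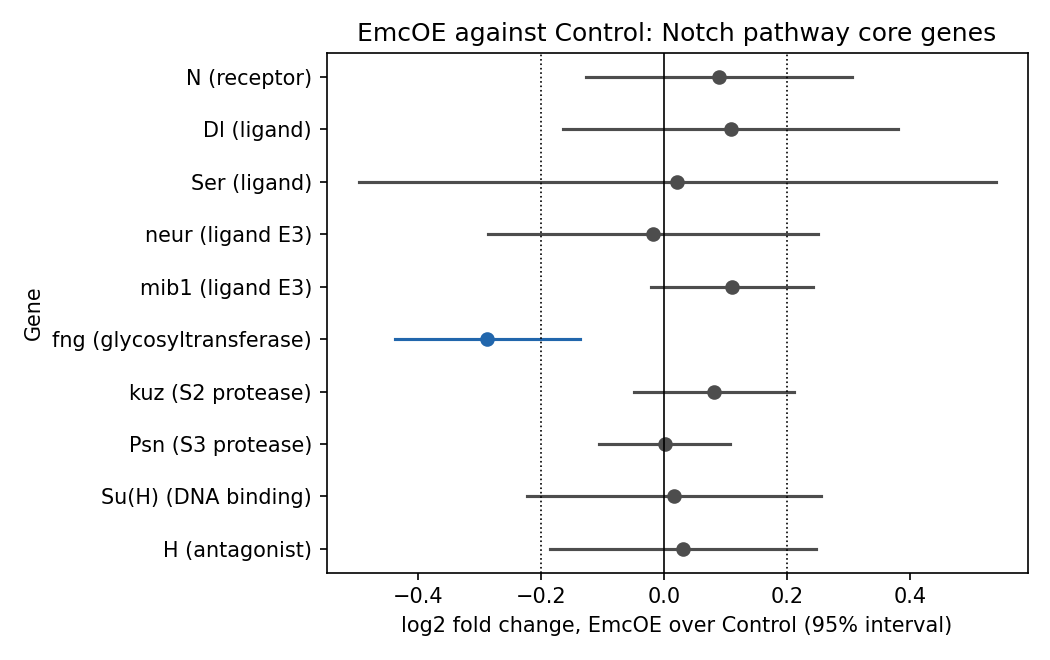
Log2 fold change of each gene, EmcOE over Control, with its 95% interval, dotted lines at the fold thresholds of -0.2 and 0.2, and *fng* in blue as the only gene called. The interval of *fng* (-0.44 to -0.14) is the only one that does not include 0.

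In EmcOE replicate 1, the most deeply sequenced library, all 10 members lay below their own mean over the 8 samples, with log2 deviations of -0.31 for *Ser* to -0.0097 for *neur*. In each of the other 7 samples the members deviated in both directions. EmcOE replicate 1 was the lowest EmcOE sample for *N*, *kuz*, *H* and *Ser*. Without it the log2 fold change was -0.29 for *fng* (edgeR adjusted p = 0.042), 0.14 for *kuz* (0.069) and 0.15 for *N* (0.32). Whether the members varied together was not tested. Ratios of opposed or alternative partners, per exon length, were compared between groups by exact permutation (two-sided). The 70 ways to assign 4 of 8 samples to a group allow no p below 0.029. The ratio of *Dl* to *Ser* was 5.06, 5.96, 2.98 and 4.42 in EmcOE samples and 4.45, 2.99, 4.66 and 4.94 in Control samples (exact p = 0.71, adjusted over the 3 ratios 0.86). The ratio of *mib1* to *neur* was 6.86, 6.10, 8.27 and 7.87 in EmcOE samples and 8.58, 6.19, 5.53 and 6.73 in Control samples (exact p = 0.51, adjusted 0.86). It was 3.42 to 5.31 over the 8 samples when only unshared exon length was used, which scales every sample alike and leaves the test as it is. These ratios ranged as widely within a group as between groups. The ratio of *Su(H)* to its antagonist *H* was 0.90, 0.82, 0.98 and 0.71 in EmcOE samples and 0.86, 0.91, 0.76 and 0.92 in Control samples, so that in every sample the antagonist was the more abundant per exon length (exact p = 0.86, adjusted 0.86).

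The other genes of the pathway were taken from a list of 46, sorted by role, of which 32 had enough counts to be tested. Of these, 1 rose, none fell and 31 did not pass. By the same rule 3.57% of all features tested were called up and 5.12% down. A single rise among 32 is thus close to the share called up. The median log2 fold change was 0.015, against 0.013 for all features tested. Groups did not overlap for 4 of the 32, against the 16.4% of all features. The gene that rose was *mam*, which encodes Mastermind, the coactivator that joins the Notch intracellular domain and Suppressor of Hairless on target genes. *mam*, on 2R from 13991203 to 14060356, had 3746, 4088, 4348 and 4112 normalized counts in EmcOE samples and 3369, 3361, 3412 and 3422 in Control samples. Every EmcOE sample was above every Control sample, and the Control values lay close together (log2 fold change 0.26 ± 0.049 SE; edgeR adjusted p = 0.0083). *mam* was called in every fit that left out 1 sample, with log2 fold changes of 0.23 to 0.30. With the trend of log ratios on exon length removed, its log2 fold change was 0.17 (adjusted p = 0.0086), below the fold threshold.

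The remaining nuclear genes included *gro*, for the corepressor Groucho that Hairless recruits. *gro* had 2602, 2625, 2736 and 2565 normalized counts in EmcOE samples and 2385, 2412, 2402 and 2345 in Control samples. These groups did not overlap either, and the log2 fold change of 0.14 (edgeR adjusted p = 0.049) was below the fold threshold. The adjusted p was 0.052 to 0.11 when 1 sample was left out. The other Hairless-bound corepressor, *CtBP*, had a level of 33.9 in EmcOE and 34.5 in Control samples, and the coactivator gene *Bx42* had 20.3 and 21.1, with neither called.

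None of the 6 cleavage genes was called, with log2 fold changes of -0.070 to 0.082. They include the other gamma-secretase subunits *Nct* (-0.056), *aph-1* (-0.070) and *pen-2* (0.0089). The sheddase gene *Tace* was the most abundant of the group, at a level of 55.8 in EmcOE and 52.7 in Control samples. Among the 6 genes of receptor glycosylation other than *fng*, none was called and the log2 fold changes were -0.068 to 0.23. *O-fut1*, which adds the fucose that Fringe extends, had levels of 12.0 in EmcOE and 12.6 in Control samples, and the GDP-fucose transporter gene *Efr* had 27.8 and 28.0. Whether *fng* differed from these genes in its fold change was not tested.

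Of 10 genes of ligand endocytosis, 3 were tested and none was called, with the epsin gene *lqf* at 55.5 and 55.3, *aux* at 23.9 and 23.4 and *mib2* at a level of 19.9 and 19.9 in EmcOE and Control samples. Of 10 genes of receptor trafficking, 9 were tested, none was called and the median log2 fold change was -0.043. The adaptor gene *AP-2alpha*, the most abundant, had levels of 73.8 in EmcOE and 68.5 in Control samples without overlap (log2 fold change 0.11; edgeR adjusted p = 0.15). The AP2-associated kinase gene *Nak* was lower in every EmcOE sample than in any Control sample (log2 fold change -0.067; edgeR adjusted p = 0.32). For the other trafficking genes tested the groups overlapped. Among them were *shrb*, at levels of 58.3 in EmcOE and 59.3 in Control samples, and *Nedd4*, at 40.1 and 42.0.

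Of 9 target genes, most of them of the *Enhancer of split* complex of Notch-induced repressors, 3 were tested and none was called. *E(spl)m3-HLH* had 57.9, 102, 71.2 and 50.3 normalized counts in EmcOE samples and 38.7, 50.2, 43.7 and 54.8 in Control samples. EmcOE replicate 2 was the highest and the groups overlapped through EmcOE replicate 4 and Control replicate 4 (log2 fold change 0.58 ± 0.24 SE, unadjusted p = 0.035, edgeR adjusted p = 0.16). Without EmcOE replicate 2 the log2 fold change was 0.34 (edgeR adjusted p = 0.37). *E(spl)mbeta-HLH* had 107, 90.3, 118 and 115.1 normalized counts in EmcOE samples and 107, 98.2, 93.6 and 76.2 in Control samples (log2 fold change 0.20; edgeR adjusted p = 0.42). *Hey* was near the minimum for testing, with means of 23.0 ± 1.66 in EmcOE and 20.1 ± 6.92 in Control samples (SD, n = 4 each; edgeR adjusted p = 0.72). The 6 targets below the minimum included *dpn*, with 0 to 7 raw counts per sample, so that differences in them were not detectable at this depth. Of the exon length of *dpn*, 59.3% (1207 bases) also lies in the antisense gene *asRNA:CR44275*. As for *neur*, read pairs from that stretch would not be assigned to either gene.

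**Figure D5:**
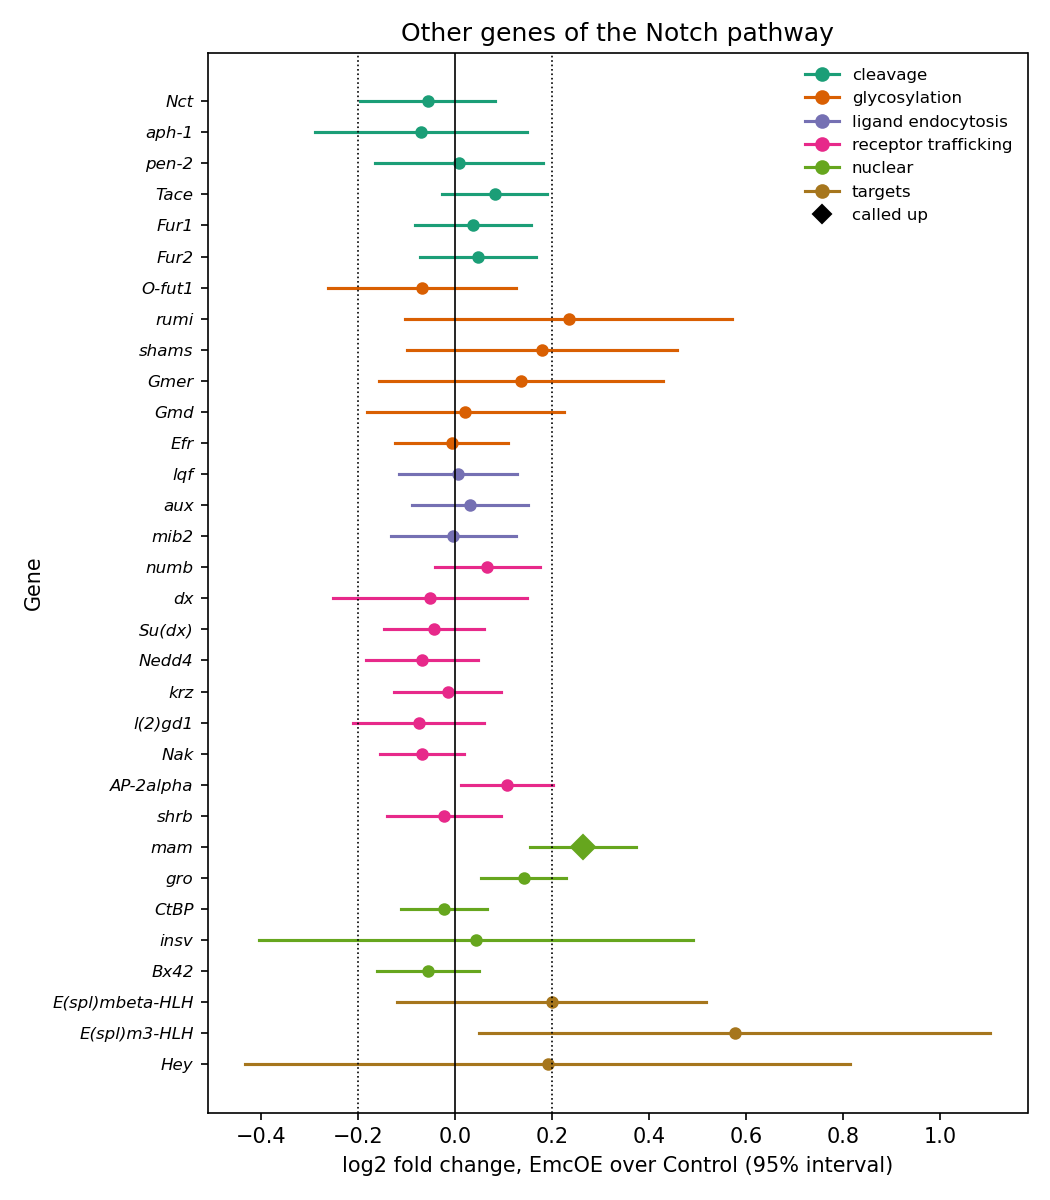
Log2 fold change of the 32 tested genes of the wider pathway list, EmcOE over Control, with 95% intervals, coloured by role, with dotted lines at -0.2 and 0.2. *mam* (0.26, diamond) is the only gene called, and the 3 target genes lie at 0.19 to 0.58 with wide intervals.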

How the data were processed

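The values are raw counts of read pairs per gene, which the authors made from unstranded poly(A)-selected paired-end libraries by mapping with STAR 2.7.4a in 2 passes to BDGP6.32 and counting with featureCounts 2.0.1. The deposited table also gives coordinates and exon length in bases (other unit), used here to compute levels. Groups and replicate numbers 1 to 4 were taken from the sample labels. The sources used here give each sample as a separate pool, and p-values measure the spread between these samples. No pair of samples had identical counts (0 of 28), and the 12 pairs within groups differed by more than counting noise (chi-square per degree of freedom 9.39 to 57.0).

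The test was run in edgeR 4.0.16 under R 4.3.3 (with limma 3.58.1). A feature entered it if its normalized count averaged 20 or more in either group, and TMM scaling was then recomputed. EmcOE was set against Control across all these features by edgeR's quasi-likelihood test with Benjamini-Hochberg adjustment, and calls needed both an adjusted p of 0.05 or less and a log2 fold change of 0.2 or more in size. To normalize, each count was scaled from its own effective library size to the mean one. Exons were compared with the current Ensembl annotation, in which those of the 10 genes were identical. Alternatives were DESeq2 1.42.0, other scalings and filters, the replicate block, a correction for exon length (lowess span 0.3) and leaving out each sample. The code was tested on simulated data, in which the edgeR test called 13 of 98 genes given a log2 fold change of 0.3 in size. The lack of a call therefore does not show that a gene was unchanged.

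All 10 members are named, with the pathway genes called and up to 3 of the highest level per role. Of those by level, *Fur1*, *Fur2* and *Gmd* were left out. *E(spl)m3-HLH*, *Nak*, *dpn*, the glial markers and the gamma-secretase subunits were named after their values were seen. The members, lists and tests were chosen with earlier results of these data known. No sequence is printed, since none was used here.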

Additional observations from a re-analysis of the deposited data

How the results depend on the processing

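The count of members called was 1, was 0 when counts were scaled by total counts, and was 0 to 1 when 1 sample was left out. The count of pathway genes called was 0 with the exon length correction, 2 (*mam* and *gro*) with no fold threshold and 1 in every fit without 1 sample. *fng* was lower in EmcOE samples in every setting, with log2 fold changes of -0.35 to -0.25 when 1 sample was left out. The sign of small changes was not stable. *Psn* was -0.0053 with DESeq2 size factors, -0.0030 with no filter, -0.0047 with a mean count of at least 100, -0.0056 with 20 in every sample, -0.0059 with DESeq2 and -0.0058 with DESeq2 and the replicate block. *neur* was 0.049 with total counts, and the exon length correction gave *N* -0.017, *Ser* -0.046 and *H* -0.034. That correction also lowered *kuz*, which kept its sign, from 0.081 to 0.0020. Without 1 sample, log2 fold changes were -0.029 to 0.018 for *Psn*, -0.074 to 0.074 for *Su(H)*, -0.034 to 0.10 for *H*, -0.12 to 0.14 for *Ser* and -0.11 to 0.064 for *neur*. They kept their sign but were 0.0032 to 0.15 for *N*, 0.033 to 0.17 for *Dl*, 0.050 to 0.14 for *kuz* and 0.064 to 0.14 for *mib1*. The log2 differences of the ratios were -0.067 to 0.29 for *Dl* to *Ser* and -0.094 to 0.058 for *Su(H)* to *H*. Of these other than *fng*, *mam* and *gro*, none passed the test in any setting, and the cause was not tested.

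Samples of the same replicate number shared the letter of their count columns. Their deviations from the group means correlated at -0.49, 0.15, 0.032 and -0.21. So few values cannot settle whether the samples were paired, and the main test treated them as unpaired. With the replicate block *fng* was -0.29 (edgeR adjusted p = 0.025) and no call among the members or pathway genes changed. Total count scaling moved the median log2 fold change of all features to 0.081, against 0.013 with TMM. *Ser* had no value with the minimum of 100. The 14 pathway genes that were not tested had counts below the minimum.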
